A study of Mus musculus with 12 samples.

Results

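Zfp607b, Ttc9b, Syt10, Hic1, Svep1 and Upk3bl are 6 genes whose array signal separated Aid-/- from Aid+/+ iPS cells and was well above background in every clone. They were taken from the study's list of probes that differed between the genotypes in these same arrays, and their 6 listed probes were among the 12 probes of that list that the scanner software called well above background on every array. The genotype difference of the 6 genes was therefore what chose them. It is given below as a description, with no test, also for 2 further probes of the same genes that are not in the list. The 6 genes are 6 of 20660 genes matched to a probe, and their 8 probes are 8 of the 55681 non-control probes of the array.

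Total RNA of 12 male mouse iPS cell clones was labelled with Cy3 and hybridised, 1 clone to each 1-colour Agilent array. All 12 clones carried the Nanog-GFP reporter on a mixed background of C57BL6, DBA and 129S4. They had been made from embryonic fibroblasts with retroviral reprogramming factors, and RNA was taken at passage 6 from cells on gelatin. The 6 Aid+/+ clones were 967B2, 967B4 and 967B6 (series 967B) and 979B1, 979B3 and 979B4 (series 979B). The 6 Aid-/- clones, labelled as Aid disrupted, were 979F1, 979F2 and 979F3 (series 979F) and 981E1, 981E4 and 981E5 (called series E here). A clone is a line grown from 1 reprogrammed colony, so the errors below are spreads between clones. Slide 1 carried the arrays of 967B and slide 2 those of 979F. Slide 3 carried 979B and series E and was the only one with both genotypes. Series 979B and 979F share a number in their names, so 979F against 979B sets the genotypes side by side within it, across slides. Within a genotype, series and slide cannot be told apart. Nor can the genotype be told apart from which alleles of the mixed background each series inherited. Clones 967B4 and 981E5 stood apart, with 1757 and 1680 well-detected probes more than 2-fold from the median clone against 223 to 545 in the other clones, and the differences and correlations of the listed probes are also given without them.

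Log2 signals are given relative to the 75th percentile of the array throughout. The pluripotency markers were detected in every clone, with 22 of 22 probes of 14 genes, among them Pou5f1, Nanog and Sox2, well above background on all 12 arrays. None of the 22 was called between the genotypes at an adjusted p under 0.05 in limma, where 0.0611% of all probes were called. At an unadjusted p under 0.05, 3 were lower, all of them probes of Tdgf1 (-0.52, -0.57 and -0.53). Of all probes, 13.6% had such a p in either direction.

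The 6 genes have little in common by function. Zfp607b belongs to the large family of zinc finger proteins with a KRAB domain, most of which bind DNA and recruit Trim28 and Setdb1 to repress transposable elements and genes. Hic1, named for its hypermethylation in cancer, is a zinc finger repressor with a BTB domain that p53 activates and that is expressed in mesenchymal cells. Svep1 is a large secreted protein of the extracellular matrix that binds the integrin of the chains Itga9 and Itgb1. Syt10 is a synaptotagmin, a calcium sensor of vesicle exocytosis. Ttc9b is a cytoplasmic protein with tetratricopeptide repeats. Upk3bl is a membrane protein related to the uroplakins, which form the plaques of the bladder lining.

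Because the study asked about methylation of cytosines at CG dinucleotides, the CG content of the promoters is shown for the genes with the most and the fewest. The 250 bases before the annotated start were read from RefSeq (GRCm38.p6), in which all 6 genes had an entry and Hic1 had a pair. The array design used mm9, and these coordinates are those of GRCm38.p6 alone. Capitals mark CG, which reads the same on both strands.
Zfp607b, chr7:27674411-27674660, plus strand: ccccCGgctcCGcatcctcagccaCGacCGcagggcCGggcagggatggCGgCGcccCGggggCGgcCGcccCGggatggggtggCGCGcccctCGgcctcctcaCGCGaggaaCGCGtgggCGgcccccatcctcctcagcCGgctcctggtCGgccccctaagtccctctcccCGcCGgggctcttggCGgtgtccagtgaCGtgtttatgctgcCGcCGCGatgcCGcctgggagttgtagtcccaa
Syt10, chr15:89841861-89842110, minus strand: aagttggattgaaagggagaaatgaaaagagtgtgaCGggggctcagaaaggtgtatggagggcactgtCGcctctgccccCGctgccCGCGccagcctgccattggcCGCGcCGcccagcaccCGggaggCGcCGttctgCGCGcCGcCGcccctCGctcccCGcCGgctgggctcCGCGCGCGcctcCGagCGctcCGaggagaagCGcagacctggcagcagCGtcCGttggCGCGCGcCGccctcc
Svep1, chr4:58206597-58206846, minus strand: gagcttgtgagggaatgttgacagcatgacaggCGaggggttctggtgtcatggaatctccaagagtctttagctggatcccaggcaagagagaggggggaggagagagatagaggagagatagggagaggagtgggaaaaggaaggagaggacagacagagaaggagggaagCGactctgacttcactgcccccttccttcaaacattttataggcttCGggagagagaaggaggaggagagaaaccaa
Upk3bl, chr5:136057017-136057266, plus strand: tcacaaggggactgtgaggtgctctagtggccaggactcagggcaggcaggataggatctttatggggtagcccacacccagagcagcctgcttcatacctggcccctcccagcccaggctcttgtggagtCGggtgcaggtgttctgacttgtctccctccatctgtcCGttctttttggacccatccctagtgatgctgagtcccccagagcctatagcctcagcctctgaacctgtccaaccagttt
The promoter of Syt10 held 32 CG and that of Zfp607b 29, counts reached by 4.58% and 6.78% of 32851 RefSeq promoters of the same length. Those of Hic1 (22 and 18) and Ttc9b (15) lay above the median promoter, which held 6. Svep1 held 3 and Upk3bl 2, counts that 71.0% and 81.2% of promoters reached. The genes higher in Aid-/- clones thus had promoters both rich and poor in CG. DNA methylation at these promoters was not analysed here.

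Zfp607b (probe A_55_P1974612) had the largest difference of the 6. Its signal was -2.65, -2.04 and -2.53 in 967B2, 967B4 and 967B6 and -2.16, -1.91 and -2.03 in 979B1, 979B3 and 979B4. In the Aid-/- clones it was -0.20, 0.10 and -0.39 in 979F1, 979F2 and 979F3 and 1.18, 0.91 and 1.08 in 981E1, 981E4 and 981E5. Every Aid-/- clone was above every Aid+/+ clone, with 1.52 between the nearest clones. The mean was 0.45 ± 0.69 (SD, n = 6) in Aid-/- and -2.22 ± 0.30 (SD, n = 6) in Aid+/+ clones, a log2 difference of 2.67 (standard error 0.29) or 6.35-fold.

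The Aid-/- clones fell into 2 levels by series. The means were 1.06 ± 0.14 (SD, n = 3) in series E, -0.16 ± 0.25 in 979F, -2.03 ± 0.13 in 979B and -2.41 ± 0.32 in 967B, in that order. The step between 979F and series E was not the contrast that chose the genes and was tested. Series 979F was lower by a log2 difference of -1.22 (standard error 0.18), past the threshold in limma over all probes (adjusted p = 0.0132). Leaving out 979F3 ended that call (-1.11, adjusted p = 0.0572 from limma), and without both 967B4 and 981E5 it was -1.21 (adjusted p = 0.0154 from limma). The step between 979B and 967B, 0.37, was not past it (adjusted p = 0.546 from limma). The Aid-/- excess was thus 1.87 between 979F and 979B, 3.46 between series E and 967B and 3.09 within slide 3. The first 2 differed by -1.59 (standard error 0.26), which was short of the threshold (adjusted p = 0.0723 from limma) but passed it without 967B4 (-1.78, adjusted p = 0.0228 from limma).

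Zfp607b was the only gene of the 6 called between series of one genotype. Between 979F and series E, 1 of the 8 probes was called and 3 had an unadjusted p under 0.05, where 3.02% of all probes were called and 18.4% had such a p. Between 979B and 967B, 0 of the 8 were called in limma and 0 had an unadjusted p under 0.05, where 0.711% of all probes were called and 10.5% had such a p. For the difference of the genotype effect between both series pairs, 0 of the 8 were called in limma and 2 had an unadjusted p under 0.05, where 0.106% of all probes were called and 9.85% had such a p.

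**Figure D1:**
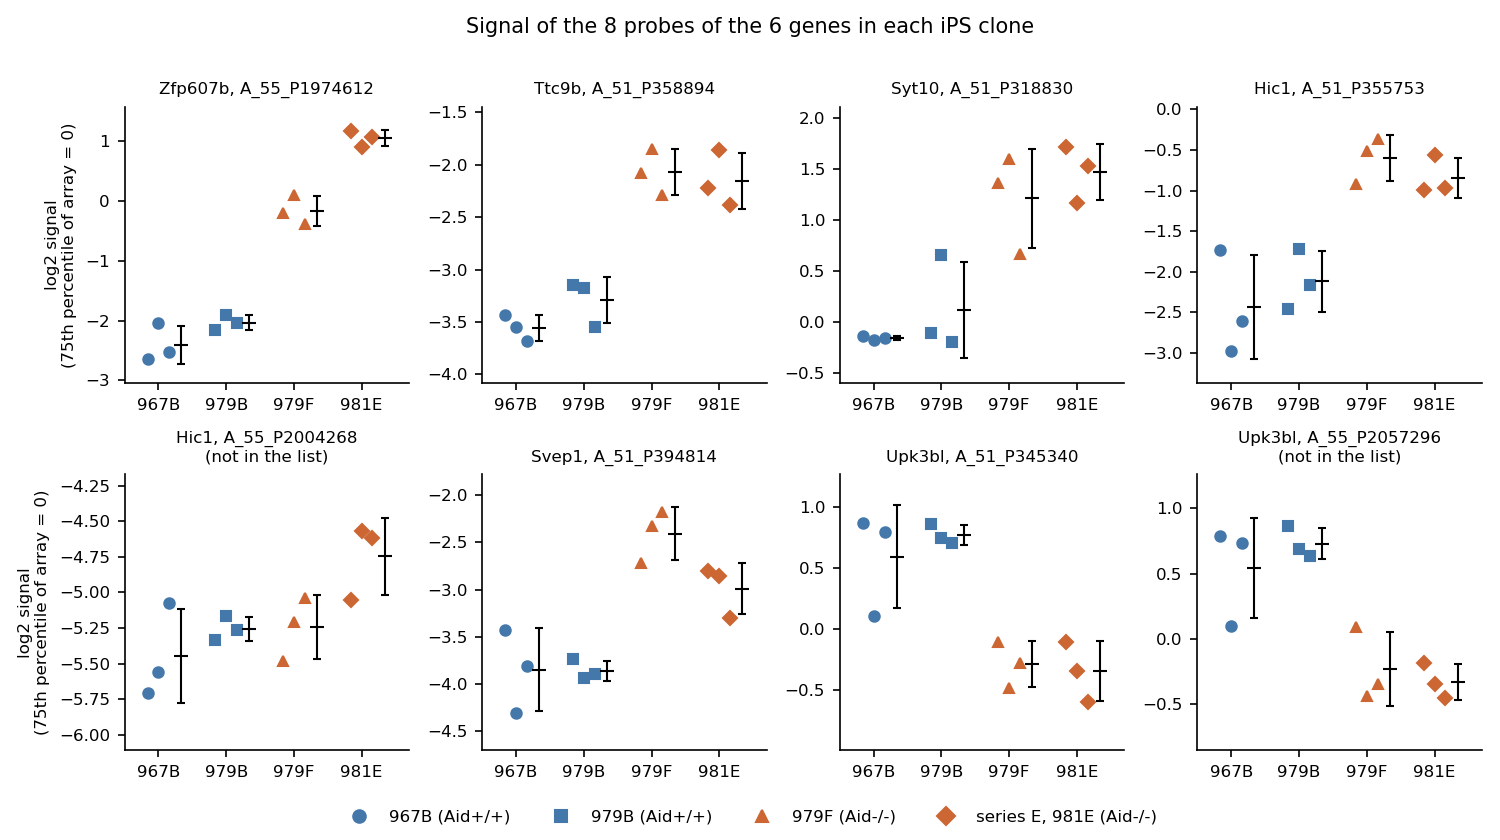
Log2 signal (75th percentile of each array at 0) of the 8 probes in each clone, grouped by clone series, with Aid+/+ in blue and Aid-/- in orange. Bars are the mean ± SD of a series of 3 clones, and the vertical scale differs between panels. Zfp607b has 2 levels among Aid-/- clones (979F between -0.39 and 0.10, series E between 0.91 and 1.18), Syt10 nearly touches between 979B3 and 979F3, and only the dim second probe of Hic1 overlaps between the genotypes.

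Ttc9b (A_51_P358894) was dim and the most even of the genes. It read -3.44, -3.55 and -3.68 in the clones of 967B in order of clone number and -3.15, -3.18 and -3.55 in those of 979B. In Aid-/- clones it read -2.08, -1.85 and -2.29 in 979F and -2.22, -1.87 and -2.39 in series E. The genotypes did not overlap and lay 0.76 apart. The means of -2.12 ± 0.22 and -3.42 ± 0.22 (SD, n = 6 each) differed by 1.31 (standard error 0.13), or 2.48-fold. The excess was alike in size in each comparison of series, 1.22 between 979F and 979B, 1.40 between series E and 967B and 1.13 within slide 3. The order of the series was 979F, series E, 979B and 967B, and neither step within a genotype passed the threshold (0.09, adjusted p = 0.891, and 0.26, adjusted p = 0.730, both from limma).

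Hic1 (A_51_P355753) was -1.73, -2.97 and -2.60 in 967B and -2.46, -1.72 and -2.17 in 979B. It was -0.91, -0.51 and -0.37 in 979F and -0.99, -0.56 and -0.97 in series E. All Aid-/- clones were higher than all Aid+/+ clones by at least 0.73, and the Aid+/+ clones spread more widely, with 967B4 the lowest and 967B2 and 979B3 the highest. The means were -0.72 ± 0.27 and -2.28 ± 0.50 (SD, n = 6 each), which differed by 1.56 (standard error 0.22), or 2.94-fold. The excess was 1.52 between 979F and 979B, 1.59 between series E and 967B and 1.27 within slide 3. A second probe of Hic1 (A_55_P2004268), not in the list, was near background, with 2 Aid-/- arrays and no Aid+/+ array well above it. It read -5.49 to -4.57 in Aid-/- clones (median -5.05) and -5.71 to -5.07 in Aid+/+ clones (median -5.30), so the genotypes overlapped. Its difference was 0.36 (standard error 0.17), made up of 0.01 between 979F and 979B and 0.70 between series E and 967B. At that brightness the second probe bears little on the level of Hic1.

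Svep1 (A_51_P394814) was the other dim gene. It was -3.43, -4.30 and -3.81 in 967B and -3.74, -3.94 and -3.90 in 979B. It was -2.72, -2.32 and -2.18 in 979F and -2.81, -2.86 and -3.30 in series E. The genotypes did not overlap, but 981E5 and 967B2 were only 0.12 apart. The means of -2.70 ± 0.40 and -3.85 ± 0.29 (SD, n = 6 each) differed by 1.15 (standard error 0.19), or 2.23-fold. Here the larger excess was that of 979F over 979B, 1.45, against 0.86 for series E over 967B and 0.87 within slide 3. The step of 0.58 between 979F and series E had an unadjusted p under 0.05 but an adjusted p of 0.218 from limma, so the order of the Aid-/- series was not settled.

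Syt10 (A_51_P318830) was among the brighter genes. It was -0.15, -0.18 and -0.16 in 967B, with an SD of 0.016, and -0.11, 0.66 and -0.20 in 979B. It was 1.37, 1.60 and 0.67 in 979F and 1.71, 1.17 and 1.53 in series E. Clone 979B3 stood well above the other Aid+/+ clones, and 979F3 was the lowest of the Aid-/- clones, so that the genotypes were separated by 0.010. The means of 1.34 ± 0.38 and -0.02 ± 0.34 (SD, n = 6 each) differed by 1.36 (standard error 0.20), or 2.57-fold. The excess was 1.10 between 979F and 979B, 1.63 between series E and 967B and 1.36 within slide 3. Without 979B3 or 979F3, and without any other single clone, the difference stayed between 1.29 and 1.5.

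Upk3bl was the one gene of the 6 that was lower in Aid-/- clones, and it was measured by 2 well-detected probes. The listed probe (A_51_P345340) read 0.87, 0.11 and 0.80 in 967B and 0.86, 0.74 and 0.71 in 979B. It read -0.11, -0.48 and -0.28 in 979F and -0.10, -0.34 and -0.60 in series E. All Aid-/- clones were below all Aid+/+ clones, and 967B4, the lowest Aid+/+ clone, set the distance of 0.21 between them. The means of -0.32 ± 0.20 and 0.68 ± 0.29 (SD, n = 6 each) differed by -1.0 (standard error 0.14), or 2.00-fold. The second probe (A_55_P2057296), not in the list, read 0.79, 0.10 and 0.73 in 967B, 0.86, 0.69 and 0.64 in 979B, 0.09, -0.44 and -0.34 in 979F and -0.18, -0.35 and -0.45 in series E. Its genotypes did not overlap either, but 979F1 and 967B4 were 0.011 apart, and its difference was -0.91 (standard error 0.14). These probes lie on either side of the 2-fold limit of the list. Over the 12 clones they had a Pearson r of 0.990 and never differed by more than 0.20. Both were lower in 979F than 979B (-1.06 and -0.96), in series E than 967B (-0.94 and -0.87) and within slide 3 (-1.12 and -1.06).

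Counted over all 8 probes, 7 did not overlap between the genotypes, against 2.17% of all probes, and nothing is read from this, since that contrast chose the genes. Without 967B4 and 981E5 together, the differences of the listed probes were 2.58 for Zfp607b, 1.34 for Ttc9b, 1.30 for Syt10, 1.47 for Hic1, 1.19 for Svep1 and -1.06 for Upk3bl. Their sign could not change, since the genotypes did not overlap in these probes. Among the 28392 probes well above background on all 12 arrays, the median difference in size was 0.16, and 0.845% differed by more than 2-fold.

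**Figure D2:**
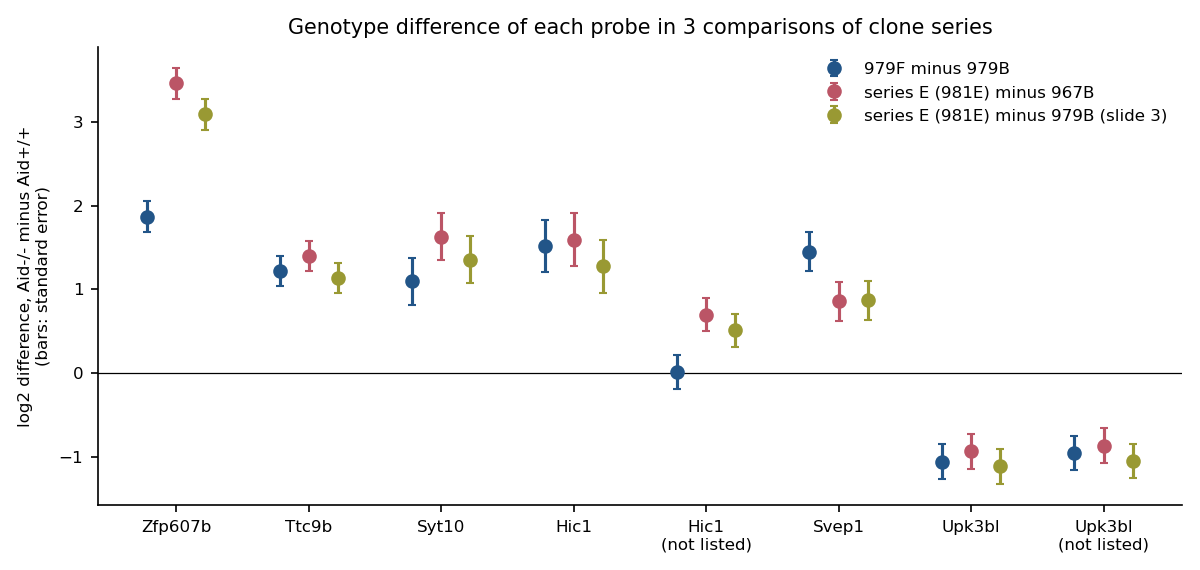
Log2 difference, Aid-/- minus Aid+/+, of each probe between 979F and 979B, between series E and 967B, and between series E and 979B on slide 3, with standard errors from the fit of 4 series means. The third comparison shares its clones with the first 2. The listed probes keep their direction in all 3, as probes whose genotypes do not overlap must. Zfp607b is the one with the widest range, from 1.87 to 3.46.

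The listed probes were correlated with each other over the clones, for the most part through the step between the genotypes. Over the 12 clones, the Pearson r between Zfp607b, Ttc9b, Syt10, Hic1 and Svep1 ran from 0.70 (Zfp607b and Svep1) to 0.93 (Zfp607b and Syt10), and Upk3bl was at -0.69 to -0.89 with the others, which the choice of the genes fixes. After the mean of each genotype was subtracted, the r ran from -0.75 (Zfp607b and Svep1) to 0.63 (Hic1 and Svep1). Without 967B4 and 981E5, over 10 clones, Zfp607b and Svep1 were at -0.74 and Hic1 and Svep1 at 0.45, and the highest value was 0.54 (Zfp607b and Syt10). Zfp607b and Svep1 thus deviated in opposite directions. Among Aid-/- clones the mean of Zfp607b was higher in series E and that of Svep1 in 979F, a step not called for Svep1. The clones of a series share a slide and, by their names, a reprogramming experiment, so the 12 points are not independent.

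**Figure D3:**
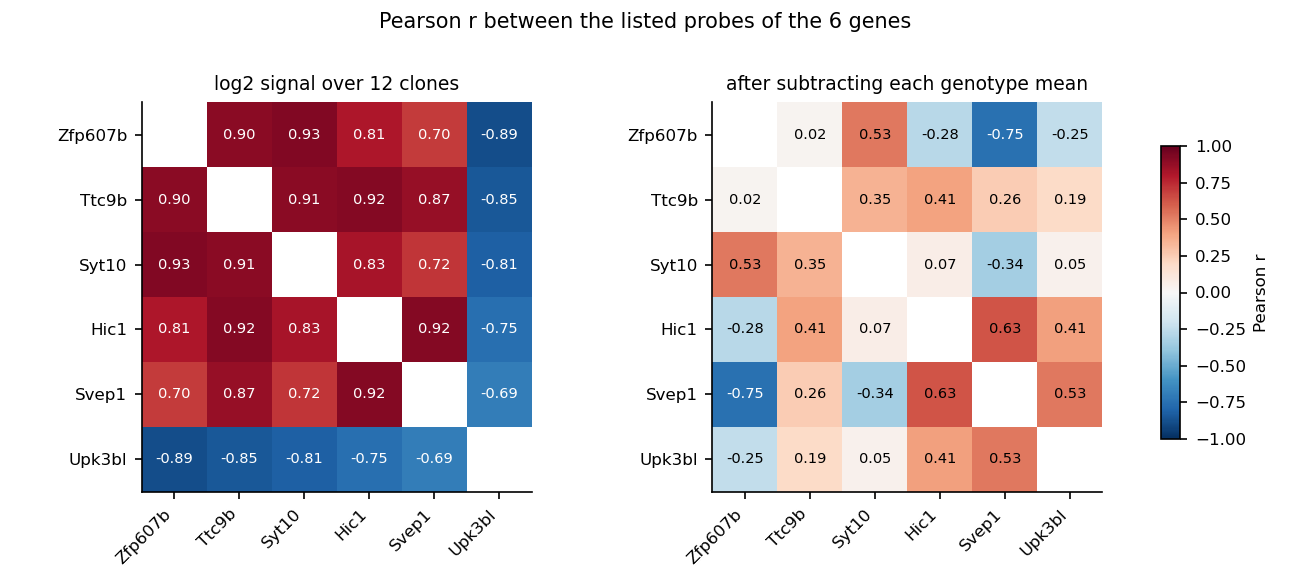
Pearson r between the listed probes of the 6 genes over 12 clones, for the log2 signal (left) and after subtracting the mean of each genotype (right). On the left every pair is far from 0, as the choice of the genes requires. On the right the values run from -0.75 to 0.63.

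No fibroblast gene was called between the genotypes, although most had a higher signal in Aid-/- clones at an unadjusted p under 0.05. Fibroblasts are both the cells the clones were made from and the feeder layer on which they were first passaged. Of 15 probes for 14 fibroblast genes, 0 were called between the genotypes in limma (lowest adjusted p = 0.163), but 11 were higher in Aid-/- clones and 0 lower at an unadjusted p under 0.05, which 13.6% of all probes had in either direction, and their median log2 difference was 1.72 against -0.014 over all probes. The collagen genes Col1a2 and Col1a1 differed by 2.28 (adjusted p = 0.306 from limma) and 1.77 (0.263), Dcn by 1.60 (0.309). On all 12 arrays 5 of the 15 probes were well above background, and that of Lum was on none. Summed over the 15 probes on the linear scale, where the 75th percentile of the array is 1, the signal was 14.2 to 35.4 in Aid-/- clones, highest in 979F3, and 2.07 to 18.6 in Aid+/+ clones, highest in 979B3 and lowest in 967B4. The brightest probes weigh most in such a sum. Col1a2 and Thy1 had mean log2 signals of 3.27 and 2.84 in Aid-/- clones, and Col1a1, the next, 1.42. In RNA of whole cultures, more cells of a type and more RNA per cell cannot be told apart.

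Hic1 followed this sum most closely of the 6 genes. Its r with log2 of the sum over the 12 clones was 0.87, and 0.88 after the mean of each genotype was subtracted. For Svep1 the values were 0.82 and 0.67, for Ttc9b 0.73 and 0.49, for Syt10 0.61 and 0.09 and for Zfp607b 0.53 and -0.30. Upk3bl (A_51_P345340) was at -0.37 over all clones and at 0.71 after subtraction, where 967B4 had both the lowest sum and the lowest Aid+/+ signal. Without 967B4 alone the value after subtraction was 0.10, and without 967B4 and 981E5 it was -0.42, so the positive r of Upk3bl rested on 967B4. Without both clones, the r after subtraction was 0.90 for Hic1, 0.40 for Svep1, 0.51 for Ttc9b, 0.03 for Syt10 and -0.20 for Zfp607b, over 10 clones. Clones 979B3 (Aid+/+) and 981E1 (Aid-/-) had the same sum of 18.6. In these single clones Hic1 was -1.72 and -0.99, Svep1 -3.94 and -2.81, Ttc9b -3.18 and -2.22, Syt10 0.66 and 1.71, Zfp607b -1.91 and 1.18 and Upk3bl 0.74 and -0.10. The order of the genotypes in this pair was fixed in advance, since they did not overlap in the listed probes. The part of fibroblast RNA in the genotype difference of the 6 genes was not tested. Neural markers had a median difference of -0.0012 over 17 probes and mesendoderm markers of -0.0077 over 12, with none called in limma and 2 and 2 at an unadjusted p under 0.05.

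**Figure D4:**
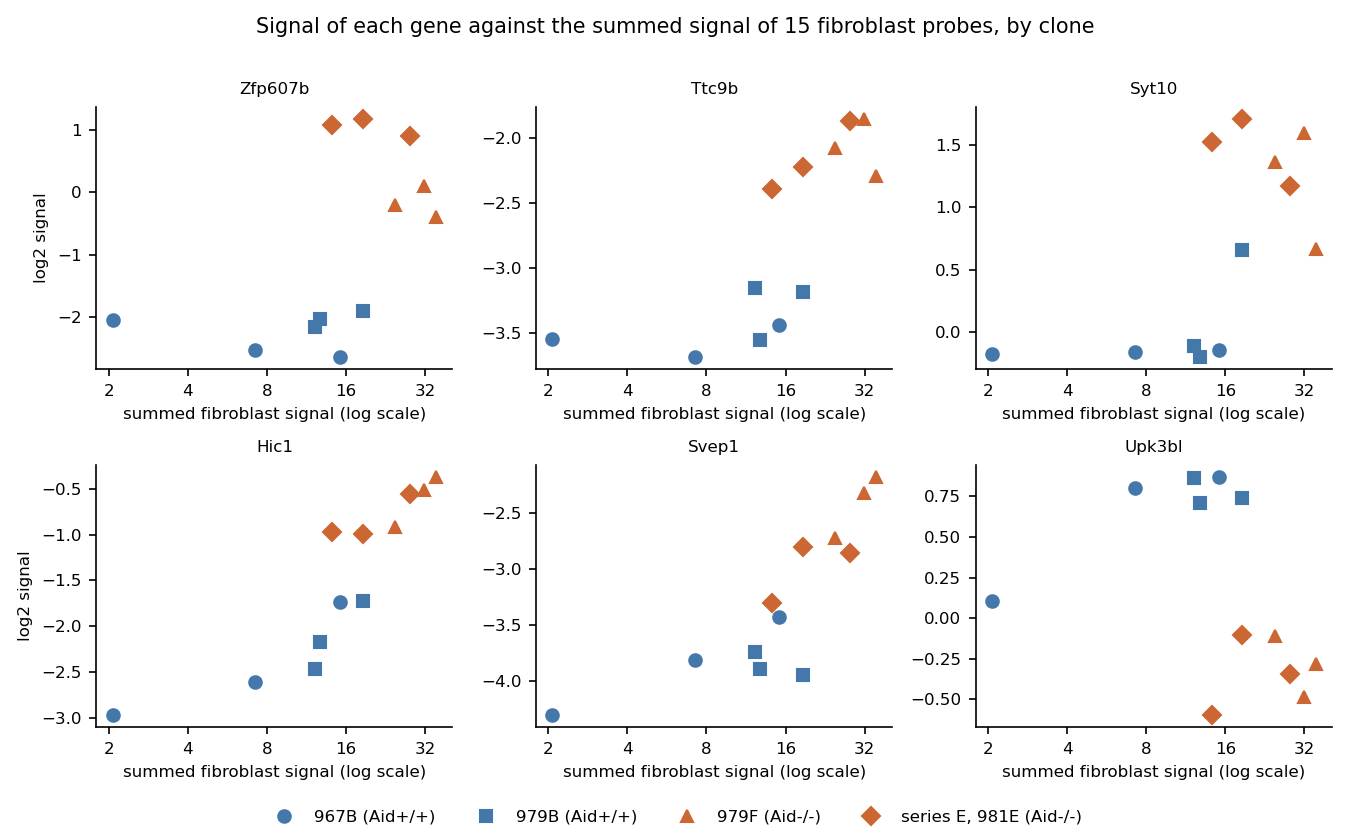
Log2 signal of each listed probe against the summed linear signal of 15 fibroblast probes (log axis), 1 point for each clone. The sum is 14.2 to 35.4 in Aid-/- clones and 2.07 to 18.6 in Aid+/+ clones. At the sum of 18.6 that 979B3 (Aid+/+) and 981E1 (Aid-/-) share, Zfp607b is at -1.91 and 1.18 and Hic1 at -1.72 and -0.99. The order of these clones is fixed in advance, since the genotypes do not overlap in the listed probes.

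The genes lie on chromosomes 7 (Zfp607b and Ttc9b), 15 (Syt10), 11 (Hic1), 4 (Svep1) and 5 (Upk3bl). Zfp607b and Ttc9b are 2 places apart in the RefSeq order of genes. Their neighbours, the genes up to 10 places on either side of each of the 6, had 66 probes for 52 genes. In limma 0 of the 66 were called between the genotypes (lowest adjusted p = 0.0788), where 0.0611% of all probes were called, and 17 had an unadjusted p under 0.05, or 25.8% against 13.6% of all probes. The genotypes did not overlap in 4 of the 66, or 6.06%, against 2.17% of all probes. Among all probes well above background on all 12 arrays, as 55 of the 66 were, the share without overlap was 3.69%. The share of those with an unadjusted p under 0.05 is not given. The median difference of the neighbours was 0.0077.

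Of these 4, Gm10046 (A_55_P2118491), a predicted gene 3 places from Zfp607b, had the largest difference. It was -2.34, -3.76 and -2.60 in 967B and -3.05, -3.11 and -3.41 in 979B, and -2.10, -2.11 and -2.25 in 979F and -0.80, -0.75 and -0.47 in series E. As for Zfp607b, both Aid-/- series were above the Aid+/+ clones and series E was above 979F. Its genotype difference was 1.63 (standard error 0.37, adjusted p = 0.102 from limma), and 979F was lower than series E by a log2 difference of -1.48 (adjusted p = 0.0342 from limma). With slide as a fixed block the genotype difference was 2.51 (adjusted p = 0.0033 from limma), a value set by series E against 979B on slide 3 alone. It was also called with detected probes only (1.63, adjusted p = 0.0444 from limma). Gm10046 was not called with series as a random block (adjusted p = 0.179), with an intensity trend (0.0637) or without 967B4 and 981E5 (0.147), all from limma. Its r with Zfp607b was 0.86 over 12 clones and 0.57 after the genotype means were subtracted. A second probe of Gm10046 (A_55_P2050386) was well above background on no array. Whether these probes keep related transcripts apart was not tested. The paralog Zfp607a, 7 places from Zfp607b and named here after its value was seen, differed by 0.16 (standard error 0.17, adjusted p = 0.752 from limma). The step between the Aid-/- series was also called for Zfp59, 6 places from Zfp607b and likewise named after its values were seen. Its 3 probes differed by -0.75, -0.94 and -1.04 between 979F and series E (adjusted p = 0.0436, 0.0191 and 0.0103 from limma). Of all probes, 3.02% were called in that contrast. The genotype differences of the Zfp59 probes were only 0.24, 0.13 and 0.12, with overlapping genotypes.

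The other neighbours whose genotypes did not overlap were smaller or dimmer. Sertad1, a transcriptional coregulator 10 places from Ttc9b, differed by 0.37 (standard error 0.08, adjusted p = 0.0987 from limma). Hipk4, a kinase 7 places from Ttc9b, differed by -0.25 (standard error 0.08, adjusted p = 0.223 from limma). Srr, the serine racemase 7 places from Hic1, differed by 0.83 (A_55_P2047673, standard error 0.16, adjusted p = 0.0788 from limma). With detected probes only, Sertad1 and Srr were called (adjusted p = 0.0395 and 0.0323 from limma), as they were with normexp background correction (0.0222 and 0.0270). Quantile normalization and the methods' t-test called Sertad1 alone, and an intensity trend Srr alone. Neither was called with series as a random block (0.185 and 0.159), without 967B4 and 981E5 (0.124 and 0.107) or with slide as a fixed block (0.225 and 0.0788), all from limma. A second, dimmer probe of Srr differed by 0.79 with overlapping genotypes. Upk3b, the uroplakin gene next to Upk3bl, was well above background on 3 arrays and differed by -1.0 with a standard error of 0.79 (adjusted p = 0.646 from limma), and was named after its value was seen. So was Serpinf1, 10 places from Hic1, which had the largest difference of all neighbours. Its 2 probes, well above background on all 12 arrays, differed by 1.64 and 1.76 with overlapping genotypes (standard errors 0.58 and 0.71, adjusted p = 0.244 and 0.304 from limma). Orai2, 7 places from Upk3bl, was likewise named after its values were seen. The 2 probes of Orai2 differed by 0.48 and 0.46 with overlapping genotypes (adjusted p = 0.137 and 0.0987 from limma).

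**Figure D5:**
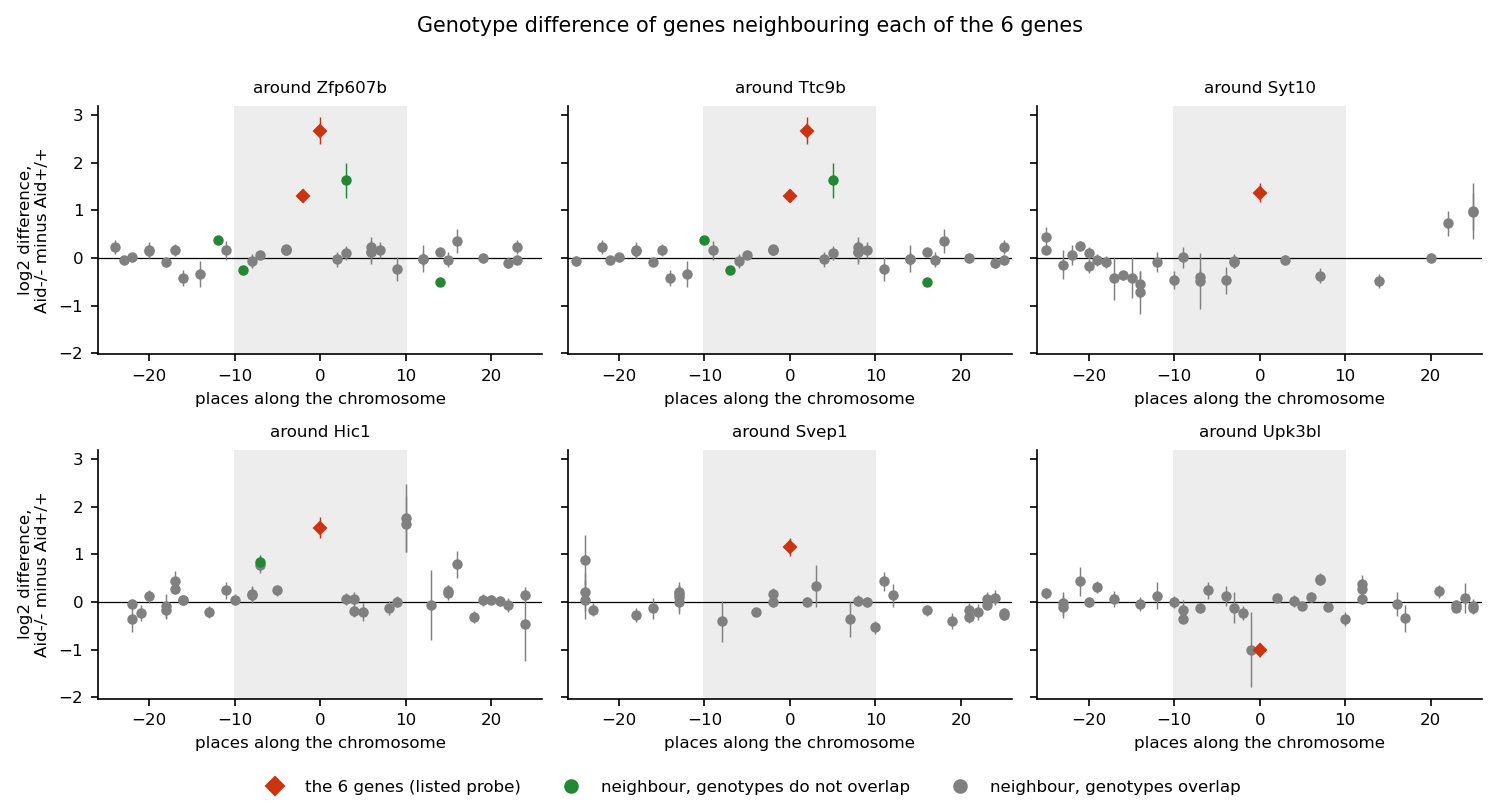
Log2 difference, Aid-/- minus Aid+/+, with standard errors, of the probes of genes up to 25 places on either side of each of the 6 genes, plotted by places in the RefSeq order of genes. The band marks 10 places, red diamonds the listed probes and green points neighbours whose genotypes did not overlap. Within the band, 4 of 66 probes are green, and the points next to the 6 genes mostly lie near 0. Gm10046 is at 1.63 on the side of Zfp607b. Serpinf1, at the edge of the band around Hic1, is at 1.64 and 1.76 with overlapping genotypes.

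Genes that act with the 6 were taken as lists of families and partners, with 63 probes for 51 genes. In limma 1 of the 63 was called, against 0.0611% of all probes, 15 had an unadjusted p under 0.05, or 23.8% against 13.6% of all probes, and the median difference was 0.0042. The share with such a p among well-detected probes alone is not given. Members were named by their difference among probes well above background on all 12 arrays. The one called was a uroplakin. Upk2 (A_51_P351384), a subunit of the urothelial plaque, was -2.93 ± 0.22 in Aid-/- and -1.96 ± 0.22 in Aid+/+ clones (SD, n = 6 each), and fell by 0.97 on the log2 scale (standard error 0.13, adjusted p = 0.0340 from limma), with no overlap. This call was lost when any one of 967B6, 979B1, 979B4, 979F1, 979F2, 979F3, 981E1 or 981E4 was left out, and likewise when series entered the fit as a random block. Of the other uroplakins, Upk1a was well above background on all 12 arrays and differed by -0.13 (adjusted p = 0.902 from limma), while Upk1b, Upk3a and Upk3b were above it on 1 to 3 arrays.

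None of the other lists held a called probe in this fit. Larger differences stood among probes above background on fewer arrays, named after their values were seen. In the Hic1 list Sox9 was at 1.80 and Epha2 at -1.32 (adjusted p = 0.325 and 0.800 from limma). In the Svep1 list Pear1 was at 1.44 (0.194) by 1 probe but 0.35 (0.773) by the other, and Tie1 at 1.12 (0.497). Ttc9 was at -0.69 (0.298). The synaptotagmins without Syt10 had 19 probes for 15 genes with a median difference of -0.013, and 7 probes were above background on no array. Syt13 differed by -0.75 (adjusted p = 0.210 from limma), Syt6 by 0.21 without overlap (0.252) and Syt11 by -0.15 (0.780). Ttc9c, of the family of Ttc9b, differed by -0.27 and -0.24 in its 2 probes. Among the paralog, cofactors, activator and reported targets of Hic1, 15 probes for 13 genes had a median difference of 0.18. Of these, the cell cycle inhibitor Cdkn1a differed by 0.61 without overlap (adjusted p = 0.0925 from limma), the imprinted inhibitor Cdkn1c by -0.51 (0.273) and cyclin Ccnd1 by 0.46 (0.550). Among partners of Svep1, Angpt2 differed by 0.51 (0.334), Tek by 0.46 (0.666) and Itga9 by -0.21 (0.849). Among 12 probes of cofactors of KRAB zinc finger proteins, all well above background on all 12 arrays, Atf7ip differed by 0.36 (adjusted p = 0.212 from limma), Cbx3 by -0.28 without overlap (0.210) and Cbx5 by -0.27 (0.210).

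Some genes followed the pattern of single members over the clones. They are among the 3 with the highest Pearson r over 12 clones among named, well-detected probes, and are given as a description. With Zfp607b these were Dnm1 (0.92), Epb41l5 (0.91) and Rnf123 (0.91), with Ttc9b Gstp2 (0.94), Mast4 (0.93) and Rab11fip5 (0.92), and with Syt10 Gstp2 (0.95) and Inpp5e (0.90). With Hic1 they were Lhfp (0.98), Ghr (0.96) and Slc41a2 (0.96), with Svep1 Usp19 (0.94), Anxa3 (0.93) and Camk1 (0.92), and with Upk3bl Abcc8 (0.97), Plac8 (0.94) and Pramel13 (0.94). The r of these genes was not computed without 967B4 and 981E5. Much of these values is the step between the genotypes that chose the 6 genes. After the genotype means were subtracted, the closest were Sel1l (0.95), Zfp54 (0.95) and Lrif1 (0.94) for Zfp607b, Slc35a2 (0.89), Myct1 (0.87) and Ttyh2 (0.85) for Ttc9b and Fkbp9 (0.89), Fbxw21 (0.83) and Nog (0.81) for Syt10. They were Timp1 (0.97), Cflar (0.96) and Ghr (0.95) for Hic1, Cep164 (0.95), Ttyh3 (0.92) and Mtch1 (0.92) for Svep1 and Myh3 (0.93), Dusp26 (0.92) and Slc13a4 (0.92) for Upk3bl. Ghr, the growth hormone receptor, was thus near Hic1 both with and without the step between genotypes, and its own genotype difference was 0.77.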

How the data were processed

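One Agilent array was hybridised for each of 12 iPS clones, 6 Aid+/+ and 6 Aid-/-, on 3 slides. Per the labels and file headers, the authors read the spots with Feature Extraction 10.7.3.1, and its processed intensity, already corrected for background, was the starting point. The series table of log2 values that the authors deposited served as an alternative and followed the values computed here with a Pearson r of 1 on every array.

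Control and outlier spots were dropped, log2 intensities were averaged over the spots of a probe, and each array was shifted to put its 75th percentile at 0. A probe was called well above background where the scanner software had flagged it so. Accessions were matched to genes through RefSeq (27235 of 28685 matched), and probes of a gene were kept apart. Differences were fitted over all probes with lmFit and eBayes in limma 3.58.1 (R 4.3.3), with prior degrees of freedom of 2.04 for the genotype fit and 2.03 for a fit of 4 series means, and adjusted by Benjamini and Hochberg. A call is an adjusted p under 0.05. With 1 array for each clone, errors are spreads between clones and p-values measure only those. Precision is limited by how many arrays there were. The fits were tested on simulated data. Figures were made with matplotlib 3.10.9.

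The 6 genes, the neighbourhoods and the lists were chosen with earlier results of these data known. Named genes were all probes of the 6 genes, neighbours that were called or did not overlap between genotypes, called genes or up to 3 with the largest difference in each family list among probes well above background on all 12 arrays, and the 3 closest genes by r. Marker lists covered pluripotent cells, fibroblasts, neural cells and mesendoderm. Alternatives were normexp on median signals with an offset of 50 followed by quantile normalization, quantile normalization alone, another base for the percentile, the deposited values, a filter on dim probes, an intensity trend, slide as a fixed or series as a random block, the methods' t-test, other widths of the neighbourhood and leaving out clones. The second probes of Hic1 and Upk3bl and the named neighbours were put through them, and correlations were repeated without 967B4 and 981E5, after the data had been seen. RT-PCR and methylation data of the study were not analysed here. The level of the disrupted gene and 1 gene close to Syt10 are not reported here.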

Additional observations from a re-analysis of the deposited data

Results flagged for a closer look

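Of 23 groups of 6 clones examined among the probes named above, 5 held a clone farther from its neighbours than Dixon's criterion for single outlying values allows, which chance gives in about 5% of groups. Syt10 was 0.658 in the Aid+/+ clone 979B3, against -0.20 to -0.11 in the other 5 Aid+/+ clones. Upk3bl was lowest among Aid+/+ clones in 967B4, with 0.106 by the listed probe, against 0.71 to 0.87 in the others, and 0.0989 by the second probe, against 0.64 to 0.86. Clone 967B4 also stood apart over all probes and had the lowest fibroblast sum. Without 967B4 and 981E5 the difference of the second probe was -0.99. In the Aid-/- clone 981E4, Hipk4 was -0.553, against -0.40 to -0.35 in the other Aid-/- clones, and Sertad1 was 1.79, against 1.96 to 2.05. No explanation of these values was tested.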

How the results depend on the processing

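The 6 listed probes kept the direction of their genotype difference under every alternative that was run. Where clones were left out or series compared alone, this was fixed in advance, since the genotypes did not overlap in these probes. With normexp background correction, whose offset shrinks dim signals by construction, Ttc9b was 0.702, Hic1 1.04 and Svep1 0.53. Without normexp, Zfp607b was 1.87 for 979F against 979B alone and 3.46 for series E against 967B alone. Leaving out each clone in turn gave 2.52 to 2.83 for Zfp607b, 1.25 to 1.36 for Ttc9b, 1.42 to 1.67 for Hic1, 1.05 to 1.28 for Svep1 and -1.12 to -0.945 for Upk3bl. The difference of the genotype effect between series pairs called 1 member probe, Zfp607b, with normexp, with detected probes only and with an intensity trend. Leaving out clones gave 0 to 1 member probes there and 0 to 1 between 979F and series E. Neighbour probes called numbered 2 with normexp, 1 with quantile normalization, 4 with detected probes only, 1 with an intensity trend, 7 with slide as a fixed block and 1 with the methods' t-test. Family probes called numbered 2 with normexp, 2 with detected probes only, 2 with an intensity trend, 4 with slide as a fixed block, 0 with series as a random block and 0 to 1 without single clones. Of all probes, 34 were called between the genotypes, but 2299 with slide as a fixed block, 481 with detected probes only, 7 with series as a random block and 6 to 67 without single clones. Between 979B and 967B 396 were called, but 2351 without 967B4 and 981E5 together and 144 to 1372 without single clones. Between 979F and series E 1684 were called, but 3303 with detected probes only and 263 to 3397 without single clones. For the difference between series pairs 59 were called, but 138 with normexp and 14 to 170 without single clones. With detected probes only, fewer probes were tested, and otherwise the cause was not tested. No paired analysis was run, since the labels pair no Aid-/- clone with an Aid+/+ clone. Slide was fitted as a fixed block and series as a random block. With slide as a fixed block, the genotype difference is that of series E against 979B, the series of slide 3. Signal near background limits the second probe of Hic1.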
